A study of Homo sapiens with 9 samples.

Results

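Genes of the nuclear pore and of transport between nucleus and cytoplasm were followed in HUCCT-1 cells, a line of human cholangiocarcinoma cells, after silencing of YAP and TAZ. The members were chosen by name, with earlier results of these data known, so their counts beside shares over all genes are descriptive. Of these 37 genes, 31 encode nucleoporins or proteins bound to the pore, 3 encode transport receptors and 3 encode parts of the Ran cycle. All 37 had a probe set among the 37201 with a single gene symbol. Cells received scrambled siRNA (NTC), the YAP siRNA 1 with TAZ siRNA 2 (combi-1) or the YAP siRNA 2 with TAZ siRNA 3 (combi-2), 40 nM in total, and RNA was taken after 24 h. Each condition had 3 Clariom D arrays, which measure transcripts by hybridization to probe sets. HUCCT-1 is one cell line, all 3 conditions were transfected with a lipid reagent, and no untransfected arrays were analysed here. The siRNA list used as a source does not describe TAZ siRNA 3. Whether replicate arrays stem from separately grown cells is not stated, and each p-value below therefore reflects array-to-array spread that may be technical.

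The nuclear pore complex is a large channel through both membranes of the nuclear envelope, built from many copies of a small set of nucleoporins. The Y complex and the inner ring form its scaffold, membrane nucleoporins anchor it, and nucleoporins rich in phenylalanine and glycine repeats fill the channel and bind passing receptors. Importins and exportins carry cargo through it, and the small GTPase Ran, kept in its GTP form in the nucleus and its GDP form in the cytoplasm, sets the direction. YAP and TAZ are transcriptional co-activators of the Hippo pathway and must enter the nucleus to act on transcription. Pores are made anew as cells grow and divide, and several nucleoporins also work at kinetochores during mitosis.

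Values are log2 signals after RMA, so a difference of 1 is a doubling, and signals of different genes are not set against each other because probe sets differ in brightness. A gene was called when the adjusted p of limma (Benjamini-Hochberg over 37201 genes) was below 0.05. Both siRNA targets were lower with both combinations: YAP1 had a log2 fold change of −2.22 with combi-1 and −2.24 with combi-2, and WWTR1, which encodes TAZ, of −1.34 and −1.39. Of 20 proliferation markers, 9 were called lower with combi-1 and 1 with combi-2, and their mean log2 signal was 9.41 to 9.48 on NTC, 8.93 to 9.09 on combi-1 and 9.23 to 9.24 on combi-2 arrays. Of 14 measured interferon response genes, 14 were called higher with combi-1 and 1 with combi-2, with mean log2 signals of 7.71 to 7.95, 9.41 to 9.54 and 8.06 to 8.39. The 7 biliary epithelium markers averaged 9.87 to 10.11 over the 9 arrays, and 1 of them was called higher with combi-1. The 6 fibroblast, 5 measured leukocyte and 5 hepatocyte markers lay at 5.63 to 5.78, 6.10 to 6.28 and 5.90 to 6.08. None of these 16 was called with either combination. The shares of all genes called were 0.833% lower and 0.68% higher with combi-1, and 0.446% and 0.304% with combi-2. The median log2 fold change was 1.63 with combi-1 and 0.48 with combi-2 for the interferon genes, and −0.46 and −0.21 for the proliferation markers. Some pore genes below, such as SEH1L and NUP43, also changed more with combi-1. Others, such as NUP54, NUP50, NDC1 and POM121, were lowest with combi-2, and some, such as NUP98, changed little. The part of proliferation and interferon genes in those results was not tested.

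With combi-1, 2 of the 37 pore and transport genes were called lower, the Y complex genes SEH1L and NUP43, and 0 were called higher. Over all genes tested, 0.833% were called lower and 0.68% higher with this combination. At an unadjusted p under 0.05, 17 members were lower and 0 higher, beside 7.65% and 8.02% of all genes. On 20 of the 37 all 3 combi-1 arrays lay below all 3 NTC arrays, and on 1, NUP160, all lay above; over all genes these shares were 10.1% and 15.8%. The log2 fold change was negative for 30 of 37 members and for 45.3% of all genes (40.6% of the 18215 protein-coding genes). The median log2 fold change was −0.16 over the members and 0.018 over all genes.

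With combi-2, 0 of the 37 were called in either direction by limma, where 0.446% of all genes were called lower and 0.304% higher. An unadjusted p under 0.05 was reached by 7 members that were lower and by 1, NUP160, that was higher, beside 5.85% and 7.41% of all genes. All 3 combi-2 arrays lay below the NTC arrays for 9 members and above them for NUP160 and KPNB1, where the shares over all genes were 6.5% and 11.6%. The log2 fold change was negative for 26 members and for 45.2% of all genes, with a median of −0.043 beside 0.016 over all genes. Combi-2 replicate 3 often lay apart from the other arrays of its group. Without it, 2 members, NUP54 and NUP50, were called lower with combi-2, and NUP107 joined SEH1L and NUP43 among those called with combi-1.

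**Figure D1:**
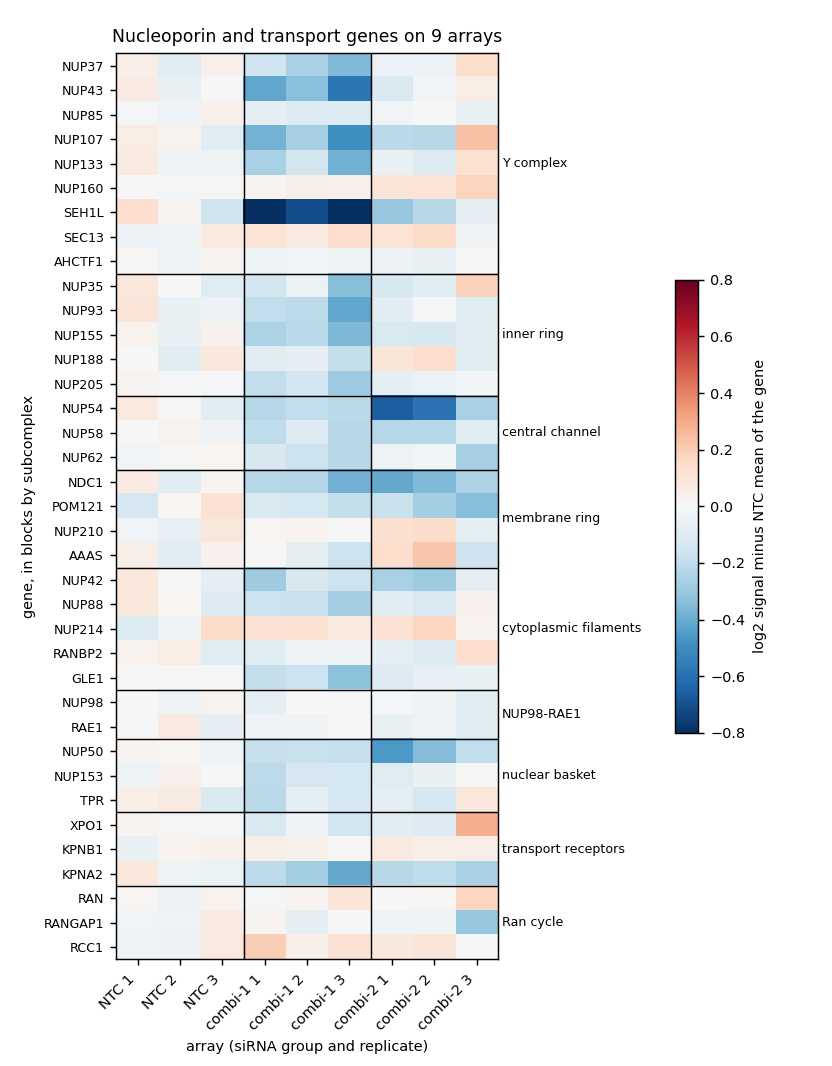
Log2 signal of each gene minus its NTC mean (colour, blue lower and red higher) for the 37 genes (vertical axis, in blocks by subcomplex) on the 9 arrays (horizontal axis). Most Y complex and inner ring genes are blue on the combi-1 arrays, with SEH1L darkest, while NUP54 and NUP50 are darkest on combi-2 replicates 1 and 2.

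The 2 combinations share the NTC arrays, so their changes against NTC are not independent of each other. Compared directly, SEH1L was higher with combi-2 than with combi-1 and was the one member called, where 0.0968% of all genes were called higher and 0.237% lower. Before adjustment, 9 members had a p below 0.05 and were higher with combi-2 and 1, NUP54, was lower, beside 5.09% and 3.78% of all genes, and 13 members had a negative difference, beside 50.8%. Combi-2 arrays lay above all combi-1 arrays for 14 members and below them for NUP54, RAE1 and NUP50, with shares over all genes of 8.59% and 6.5%. When both combinations were averaged, 1 member was called lower, SEH1L at −0.50 (adjusted p = 0.0208 from limma), where 0.823% of all genes were called lower. This call was lost on leaving out NTC replicate 1 or 2, combi-1 replicate 1 or 3, or combi-2 replicate 1 or 2, with adjusted p from 0.0519 to 0.108. An unadjusted p under 0.05 was reached by 13 members that were lower, beside 7.3% of all genes, and the averaged change was negative for 30, beside 45.1%. All 6 silenced arrays lay below the 3 NTC arrays for NUP155, NUP205, NUP54, NUP58, NDC1, GLE1, NUP50 and KPNA2, which is 8 members beside 3.56% of all genes, and above them for NUP160, beside 5.93%.

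**Figure D2:**
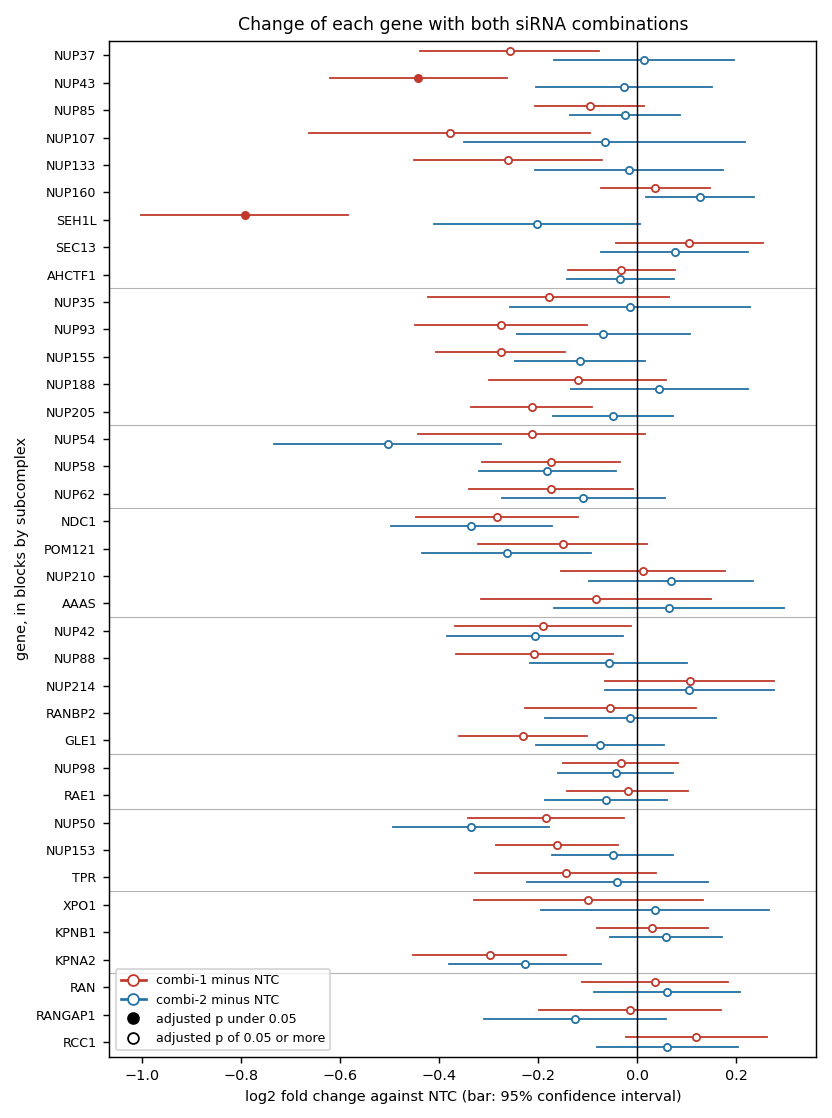
Log2 fold change against NTC (horizontal axis) of the 37 genes with combi-1 (red) and combi-2 (blue), with 95% confidence intervals as bars and filled circles where the adjusted p is below 0.05. The 2 filled circles are SEH1L and NUP43 with combi-1, and every combi-2 circle is open.

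The Y complex, the outer scaffold of the pore, held both members called. SEH1L, a Y complex subunit that also belongs to a nutrient-sensing complex at the lysosome, had log2 signals of 8.72, 8.61 and 8.43 with NTC, 7.73, 7.88 and 7.78 with combi-1, and 8.28, 8.37 and 8.51 with combi-2. The combi-1 arrays lay below all others, and the combi-2 range overlapped that of NTC. With combi-1 the gene was 42.3% lower, a log2 fold change of −0.79 (95% confidence interval −1.002 to −0.584, standard error 0.0917, adjusted p = 0.00448 from limma). With combi-2 it was −0.20 (interval −0.41 to 0.01, adjusted p = 0.393). The difference between the combinations was 0.59 (interval 0.38 to 0.80, adjusted p = 0.0458), a call that was lost under 11 of 21 other settings, among them the removal of any 1 array except NTC replicate 3. The decrease with combi-1 was called under all 21.

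NUP43, a further Y complex subunit, had log2 signals of 8.88, 8.76 and 8.81 with NTC, 8.40, 8.48 and 8.24 with combi-1, and 8.70, 8.79 and 8.88 with combi-2. Again the combi-1 arrays were the lowest, and those of NTC and combi-2 overlapped. Its log2 fold change with combi-1 was −0.44 (standard error 0.0784, adjusted p = 0.0336 from limma), which is 26.4% lower. That call was lost under 12 of 21 other settings, among them the removal of any 1 array except combi-2 replicate 3, with adjusted p up to 0.135. With combi-2 the change was −0.03 (interval −0.21 to 0.15), and the difference of 0.42 between the combinations had an adjusted p of 0.0999.

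A further 4 Y complex genes, NUP37, NUP85, NUP107 and NUP133, lay below NTC on all 3 combi-1 arrays with no call. Their log2 fold changes were −0.26, −0.10, −0.38 and −0.26. Such a separation was seen for 10.1% of all genes. NUP107, a core subunit of the stem, had log2 signals of 8.71, 8.68 and 8.56 with NTC, 8.27, 8.38 and 8.16 with combi-1, and 8.44, 8.43 and 8.88 with combi-2. Its combi-2 replicate 3 was the highest of all 9 arrays and the other combi-2 arrays lay between the combi-1 and NTC ranges. NUP160, another scaffold subunit of the Y, differed from these in sign, with log2 signals of 8.89, 8.87 and 8.89 with NTC, 8.90, 8.93 and 8.93 with combi-1, and 8.98, 8.98 and 9.06 with combi-2. Both silenced groups lay above NTC, with log2 fold changes of 0.04 (adjusted p = 0.74) and 0.13 (adjusted p = 0.314). SEC13, which also coats vesicles leaving the endoplasmic reticulum, was at 0.11 with combi-1 and 0.08 with combi-2. AHCTF1, which starts pore assembly on chromatin after mitosis, was at −0.03 with both. Over the 9 Y complex genes the median was −0.26 with combi-1 and −0.024 with combi-2. Combi-2 arrays lay above all combi-1 arrays for 7 of the 9, beside 8.59% of all genes.

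**Figure D3:**
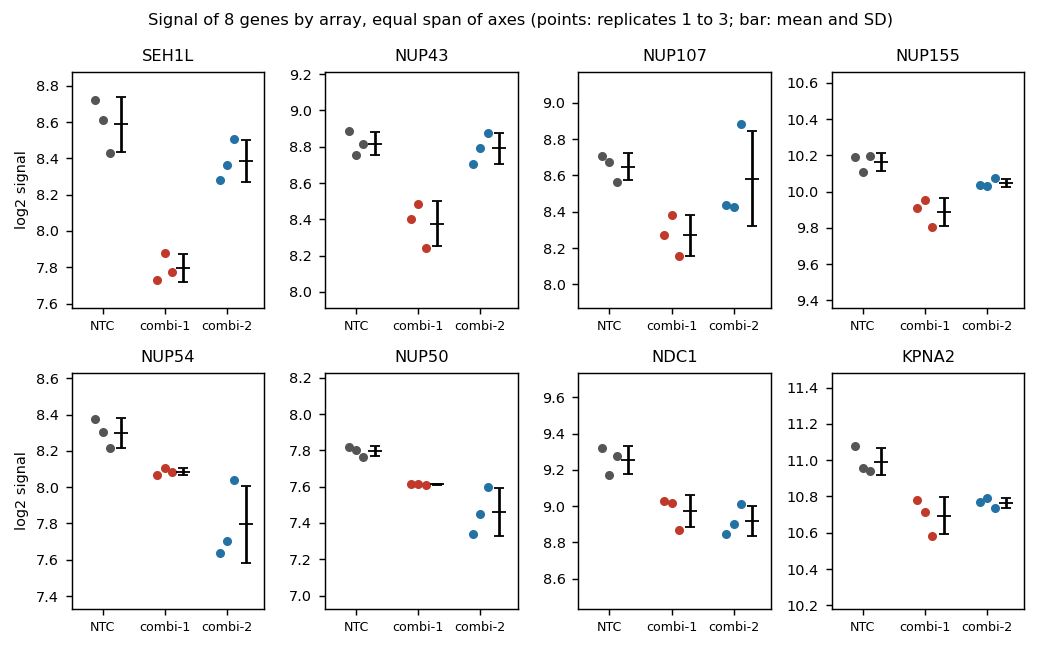
Log2 signal (vertical axis, same span in each panel) of 8 genes on the 3 NTC, 3 combi-1 and 3 combi-2 arrays (points), with the mean and SD as bars. SEH1L, NUP43 and NUP107 are lowest with combi-1, NUP54 and NUP50 are lowest with combi-2, and NDC1 and KPNA2 lie below NTC in both groups.

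The inner ring links the Y complex scaffold to the membrane and the channel. All 5 of its genes had negative log2 fold changes with combi-1, from −0.28 to −0.12, and 0 were called. NUP155, which binds the pore membrane, had log2 signals of 10.19, 10.11 and 10.20 with NTC, 9.91, 9.95 and 9.80 with combi-1, and 10.04, 10.03 and 10.07 with combi-2. The groups did not overlap, with combi-2 in between. Its log2 fold change was −0.28 with combi-1 (interval −0.41 to −0.14, adjusted p = 0.0626) and −0.12 with combi-2 (adjusted p = 0.437). NUP93, which ties the ring to the channel, and the large scaffold protein NUP205 also lay below NTC on every combi-1 array, at −0.28 and −0.21. NUP35 and NUP188, the other large scaffold protein, overlapped NTC, at −0.18 and −0.12. With combi-2 the 5 genes ranged from −0.12 to 0.045.

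The 3 central channel genes, NUP54, NUP58 and NUP62, encode the repeat-bearing trimer that lines the transport path. All 3 lay below NTC on every combi-1 array, at log2 fold changes of −0.21, −0.17 and −0.17. The share of all genes below NTC in this way was 10.1%, and 0 of the 3 were called with combi-1. NUP54 had log2 signals of 8.38, 8.31 and 8.21 with NTC, 8.07, 8.10 and 8.09 with combi-1, and 7.64, 7.71 and 8.04 with combi-2. Its 3 groups did not overlap and combi-2 was lowest, the reverse of the order for SEH1L. With combi-2 the change was −0.50 (interval −0.73 to −0.27, standard error 0.101), which is 29.5% lower, with an adjusted p of 0.0764 from limma that missed the threshold. Without combi-2 replicate 3 it was −0.63 (adjusted p = 0.0102). Leaving out any other single array gave no call with combi-2, with adjusted p up to 0.255 from limma. The difference between the combinations was −0.29 (interval −0.52 to −0.06, adjusted p = 0.429). NUP58 had log2 signals of 9.30, 9.33 and 9.27 with NTC, 9.10, 9.20 and 9.08 with combi-1, and 9.08, 9.07 and 9.21 with combi-2. Both silenced groups lay below NTC by about the same amount, at −0.17 and −0.18 (adjusted p = 0.227 and 0.263), with a difference of −0.01 (interval −0.15 to 0.13). NUP62 was at −0.11 with combi-2, where replicate 3 was lowest, at 9.74 beside NTC signals of 9.99 to 10.02, and the other combi-2 arrays were at 9.97 and 9.99.

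Promoters are shown for the members with the largest decreases among those with a promoter in RefSeq, which were SEH1L and NUP107 with combi-1 and NUP54 and NUP50 with combi-2. Each is the 250 bases before the annotated start on build GRCh38.p14, on the strand of the gene, with matches on either strand to the ETS motif CCGGAAG, the NRF1 motif GCATGCGC and the CCAAT box in capitals. They lie at chr18:12947761-12948010 (plus strand), chr12:68686728-68686977 (plus), chr4:76148398-76148647 (minus) and chr22:45163675-45163924 (plus).
SEH1L: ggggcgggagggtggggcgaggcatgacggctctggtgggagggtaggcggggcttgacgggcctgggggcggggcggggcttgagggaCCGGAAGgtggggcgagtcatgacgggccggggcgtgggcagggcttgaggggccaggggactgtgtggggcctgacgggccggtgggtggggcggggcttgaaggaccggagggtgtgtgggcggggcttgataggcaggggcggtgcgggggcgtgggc
NUP107: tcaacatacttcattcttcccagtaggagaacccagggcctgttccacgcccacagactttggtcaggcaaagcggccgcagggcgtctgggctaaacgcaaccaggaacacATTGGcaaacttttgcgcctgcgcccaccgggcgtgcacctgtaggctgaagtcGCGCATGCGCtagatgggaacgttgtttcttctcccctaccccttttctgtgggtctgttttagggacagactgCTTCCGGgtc
NUP54: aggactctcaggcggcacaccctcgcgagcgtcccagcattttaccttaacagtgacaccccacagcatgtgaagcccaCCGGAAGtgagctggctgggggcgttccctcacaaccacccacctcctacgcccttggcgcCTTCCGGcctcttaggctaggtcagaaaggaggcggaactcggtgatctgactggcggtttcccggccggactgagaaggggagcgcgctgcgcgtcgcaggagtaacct
NUP50: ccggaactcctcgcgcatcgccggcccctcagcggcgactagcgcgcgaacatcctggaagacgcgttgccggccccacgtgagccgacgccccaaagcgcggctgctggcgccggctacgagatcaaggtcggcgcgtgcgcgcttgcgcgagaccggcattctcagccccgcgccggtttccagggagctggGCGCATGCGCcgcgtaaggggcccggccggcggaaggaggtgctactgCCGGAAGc

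All 4 held the ETS motif, starting 161 bases before the annotated start in SEH1L, 10 in NUP107, 171 and 110 in NUP54, and 8 in NUP50. NUP107 and NUP50 also held the NRF1 motif, 84 and 56 bases before the start, where matches on both strands overlap in a palindrome, and NUP107 a CCAAT box. No match overlapped one of another motif. Of the 33 members with a promoter in RefSeq, 13 held CCGGAAG, where 8.82% of all 27305 promoters did, and 4 held GCATGCGC, where 2.81% did. These 27305 were not limited to protein-coding genes, and no share for protein-coding genes alone was taken. The core of the motif bound by TEAD factors, the DNA-binding partners of YAP and TAZ, was searched as GGAATG and occurred in 4 of the 33, in NUP160, NUP35, KPNA2 and RCC1, where 11.9% of all promoters held it. CCAAT was found in 12 of the 33 (33% of all promoters) and the cell cycle element CHR, searched as TTTGAA or TTTAAA, in 9 (22.1%). An E2F motif, searched as TTTGGCGC, TTTCCCGC, TTTCGCGC or TTTGCCGC, was in 0 of these windows (2.79% of all). The members with the ETS motif were NUP37, NUP107, NUP160, SEH1L, SEC13, NUP35, NUP54, NUP58, POM121, NUP88, NUP214, NUP50 and RCC1. Of these, NUP160, SEC13, NUP214 and RCC1 had positive changes with both combinations, and the others were lower with combi-1. The 4 promoters shown were picked by their decreases, and a link between motif and change was not tested. All matches describe letters in the sequence and not binding.

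Of the membrane ring genes, NDC1, a transmembrane nucleoporin that anchors the scaffold, was lower than NTC on all 6 silenced arrays. Its log2 signals were 9.32, 9.17 and 9.28 with NTC, 9.03, 9.02 and 8.87 with combi-1, and 8.85, 8.90 and 9.01 with combi-2. The silenced groups overlapped each other and not NTC. The log2 fold changes were −0.28 with combi-1 (adjusted p = 0.114) and −0.33 with combi-2 (adjusted p = 0.0965), and both missed the threshold. POM121, a membrane nucleoporin needed for assembly in interphase, was at −0.15 and −0.26, with its combi-2 arrays below NTC. Its sequence is nearly identical to that of POM121C, which was at 0.05 and −0.09, so signal may be shared between the 2 probe sets. NUP210 was at 0.01 and 0.07, and AAAS, which NDC1 holds at the pore, at −0.08 and 0.07. In AAAS, combi-2 replicates 1 and 2 were at 8.38 and 8.46, above NTC, and replicate 3 was at 8.08, below it.

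Among the 5 genes of the cytoplasmic face, which release exported cargo and messenger RNA, 3 lay below NTC on all combi-1 arrays. This held for 10.1% of all genes, and 0 of the 5 were called with combi-1. GLE1, the activator of the helicase that strips proteins from exported mRNA, had log2 signals of 7.72, 7.72 and 7.70 with NTC, 7.52, 7.54 and 7.38 with combi-1, and 7.61, 7.65 and 7.66 with combi-2. Every silenced array was below NTC, combi-1 furthest, at −0.23 (interval −0.36 to −0.10, adjusted p = 0.106), with combi-2 at −0.08 (adjusted p = 0.613). NUP42, the partner of GLE1, had log2 signals of 7.37, 7.28 and 7.21 with NTC, 7.003, 7.16 and 7.12 with combi-1, and 7.02, 7.0 and 7.21 with combi-2, with changes of −0.19 (adjusted p = 0.289) and −0.21 (adjusted p = 0.313). Its combi-2 replicate 3 reached the lowest NTC array. NUP88 was at −0.21 and −0.06, and NUP214, which forms a complex with it, at 0.11 with both combinations. RANBP2, the SUMO ligase that holds RANGAP1 at the pore, was at −0.05 and −0.01, and its sequence is shared with the RGPD genes, so its signal is uncertain.

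NUP98 and RAE1, which form a pair used in mRNA export, had a median change of −0.026 with combi-1 and −0.053 with combi-2. The log2 signals of NUP98 were 8.99, 8.96 and 9.02 with NTC, 8.91, 8.99 and 8.98 with combi-1, and 8.98, 8.96 and 8.90 with combi-2. Those of RAE1 were 8.33, 8.40 and 8.26, then 8.30, 8.30 and 8.33, then 8.27, 8.29 and 8.24. Both overlapped NTC in each comparison. The interval for NUP98 was −0.15 to 0.08 with combi-1 and −0.16 to 0.07 with combi-2, and that for RAE1 was −0.14 to 0.10 and −0.19 to 0.06.

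The nuclear basket extends from the pore into the nucleus. NUP50, a mobile basket protein that helps to release import cargo, had log2 signals of 7.82, 7.80 and 7.76 with NTC, 7.61, 7.62 and 7.61 with combi-1, and 7.34, 7.45 and 7.60 with combi-2. As with NUP54, the 3 groups were separate and combi-2 was lowest. The changes were −0.18 with combi-1 (adjusted p = 0.254) and −0.34 with combi-2 (interval −0.49 to −0.18, adjusted p = 0.0836), and without combi-2 replicate 3 the latter was −0.40 (adjusted p = 0.0244). No other removal of a single array gave a call of NUP50 with combi-2, with adjusted p up to 0.256 from limma. The difference between the combinations was −0.15 (interval −0.31 to 0.01, adjusted p = 0.578). NUP153, which tethers the basket, had log2 signals of 9.65, 9.72 and 9.69 with NTC, 9.48, 9.55 and 9.54 with combi-1, and 9.59, 9.62 and 9.70 with combi-2. Combi-1 lay below NTC at −0.16 (adjusted p = 0.209) and combi-2 overlapped it at −0.05 (adjusted p = 0.738). TPR, the main basket filament, overlapped NTC with both, at −0.14 and −0.04.

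KPNA2, an importin alpha that reads the classical import signal, was the transport receptor with the lowest p. Its log2 signals were 11.08, 10.96 and 10.94 with NTC, 10.78, 10.71 and 10.58 with combi-1, and 10.77, 10.79 and 10.73 with combi-2. All 6 silenced arrays lay below NTC, with changes of −0.30 (interval −0.45 to −0.14, adjusted p = 0.0817) and −0.23 (interval −0.38 to −0.07, adjusted p = 0.213). KPNB1, the importin beta that carries KPNA2 through the pore, was at 0.03 and 0.06. The main export receptor XPO1 was at −0.10 and 0.04, with combi-2 replicate 3 at 9.29 beside 8.85 to 9.02 on the other 8 arrays.

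The Ran cycle genes had no member separated from NTC. RCC1, which loads Ran with GTP on chromatin, had log2 signals of 8.87, 8.85 and 8.98 with NTC, 9.09, 8.95 and 9.01 with combi-1, and 8.98, 8.996 and 8.90 with combi-2, with changes of 0.12 (adjusted p = 0.392) and 0.06 (adjusted p = 0.718). RANGAP1, which triggers GTP hydrolysis at the cytoplasmic face, had log2 signals of 8.50, 8.48 and 8.59 with NTC, 8.54, 8.45 and 8.53 with combi-1, and 8.49, 8.49 and 8.22 with combi-2. Its changes were −0.02 (adjusted p = 0.942) and −0.12 (adjusted p = 0.549), and combi-2 replicate 3 was the lowest of the 9 arrays. RAN itself was at 0.04 and 0.06.

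Of 46 measured importins, exportins, Ran cofactors and mRNA export factors outside the 37, 1 was called higher and 2 lower with combi-1, and 1 higher and 0 lower with combi-2, with median changes of −0.060 and −0.028. Over all genes tested, 0.68% were called higher and 0.833% lower with combi-1, and 0.304% and 0.446% with combi-2. KPNA7, an importin alpha of the same family as KPNA2, had log2 signals of 6.71, 6.69 and 6.64 with NTC, 7.28, 7.17 and 7.05 with combi-1, and 7.43, 7.45 and 7.26 with combi-2. Every silenced array was above NTC, and the rise was 0.48 with combi-1 (adjusted p = 0.0213 from limma, standard error 0.0765) and 0.70 with combi-2 (adjusted p = 0.00682). The combi-1 call was lost under 7 of 21 other settings, among them the removal of any 1 NTC array or of combi-1 replicate 1 or 2, and the combi-2 call under 0. The changes of KPNA2 had the opposite sign and were not called.

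IPO8, a receptor of the importin beta family, had log2 signals of 8.69, 8.58 and 8.52 with NTC, 8.16, 8.15 and 7.96 with combi-1, and 8.51, 8.58 and 8.85 with combi-2. It was lower with combi-1, at −0.51 (adjusted p = 0.0498, lost under 11 of 21 other settings), and at 0.05 with combi-2 (adjusted p = 0.873). Removal of any 1 array except combi-2 replicate 3 lost the call. The difference was 0.56 (interval 0.33 to 0.78, adjusted p = 0.0863). XPO4, an exportin, had log2 signals of 8.38, 8.29 and 8.27 with NTC, 7.99, 8.07 and 8.03 with combi-1, and 7.97, 8.01 and 8.05 with combi-2. All 6 silenced arrays lay below NTC, at −0.28 with combi-1 (adjusted p = 0.0465, lost under 11 of 21 other settings) and −0.30 with combi-2 (adjusted p = 0.0542), and the combi-1 call likewise held on leaving out combi-2 replicate 3 but no other array. In the other lists the gene with the smallest p for combi-1 was NUTF2, the import factor of Ran itself (0.12), THOC3, a subunit of the mRNA export complex THO (−0.21), SENP1, a SUMO protease found at the pore (−0.09), and RGPD4, one of the paralogs of RANBP2 (−0.28), and none of these was called with either combination.

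**Figure D4:**
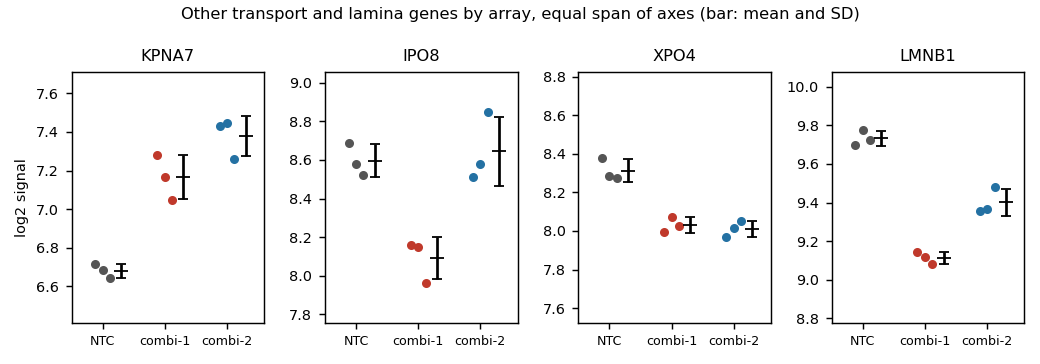
Log2 signal (vertical axis, same span in each panel) of KPNA7, IPO8, XPO4 and LMNB1 on the 3 arrays of each condition (points), with the mean and SD as bars. KPNA7 is higher and XPO4 and LMNB1 are lower on all 6 silenced arrays, and IPO8 is lower on the 3 combi-1 arrays.

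The lamina is the protein mesh under the inner nuclear membrane to which pores are attached. Of 14 genes of the lamina and the nuclear envelope, 1 was called lower with each combination. Of all genes, 0.833% were called lower with combi-1 and 0.446% with combi-2. LMNB1, which encodes lamin B1, had log2 signals of 9.70, 9.77 and 9.72 with NTC, 9.14, 9.12 and 9.08 with combi-1, and 9.35, 9.37 and 9.48 with combi-2. The 3 groups did not overlap. The change was −0.62 with combi-1 (interval −0.75 to −0.49, adjusted p = 0.00127 from limma), called under all 21 other settings, and −0.33 with combi-2 (interval −0.46 to −0.20, adjusted p = 0.0426), lost under 11 of them, among them the removal of any 1 array except combi-2 replicate 3. The difference of 0.29 between the combinations had an adjusted p of 0.112. The other 13 genes, the lamins LMNA and LMNB2 among them, were not called with either combination.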

How the data were processed

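Total RNA from HUCCT-1 cells was hybridized to 9 Clariom D arrays, 3 per condition (NTC, combi-1, combi-2). The authors deposited log2 signals: probes were assigned to genes with version 22 of a custom CDF, and RMA served for background correction and normalization. RMA evens out the arrays, so a shift common to all genes cannot be seen, and their medians lie at 5.81. NTC replicate 1 holds 29641 distinct values and each other array 7528. Rounding NTC replicate 1 to the steps of the other arrays changed no call of a pore or transport member. Of 39334 probe sets, 37201 carry 1 gene symbol and were tested, and 2133 were left out. A model of group means was fitted to the 9 arrays with limma 3.58.1 under R 4.3.3 (lmFit and eBayes, prior degrees of freedom 2.56), giving 4 contrasts, and p was adjusted by Benjamini-Hochberg over the 37201 with a threshold of 0.05. The model was tested on simulated data.

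The members and the gene lists were chosen with earlier results of these data known. Per-array values are given for each member called in a contrast and, in each of the 9 subcomplex groups, for the member with the smallest p for each combination; NUP107 was added after its values were seen. From the transport lists and the lamina and envelope list the text names genes called in a contrast (at most 3 a list). Where none was called it names the one with the smallest p for combi-1, and it gives marker lists by counts. Some genes of these lists are not reported here. Promoter sequences are those of RefSeq, which matched 33 of 37 members. Alternatives were other scaling, filters, gene sets, variance models, array weights, a replicate block, a size threshold and leaving out each array. The number of arrays limits the precision.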

Additional observations from a re-analysis of the deposited data

Results flagged for a closer look

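SEH1L differed between the 2 siRNA combinations, and the difference itself was tested: the combi-2 arrays lay 0.59 above the combi-1 arrays on the log2 scale (adjusted p = 0.0458 from limma), with all 3 combi-2 arrays above all 3 combi-1 arrays. Over the other 21 settings the difference ranged from 0.53 to 0.64 and the adjusted p from 0.00536 to 0.214, and in 11 of them the call was lost.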

How the results depend on the processing

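Of 1328 values of 16 named members under other settings, 1241 kept their direction and side of the threshold, 32 lost a call, 42 gained one and 13 changed sign. The decrease of SEH1L with combi-1 ranged from −0.87 to −0.72 and was called in all 21 settings (adjusted p from 0.00035 to 0.0363). The count of members called lower with combi-1 (2) became 6 without the 40% dimmest probe sets, 8 among protein-coding genes, 4 with a variance trend and robust fit, 1 with an ordinary linear model, with only the 6 arrays compared and with a log2 change of at least 0.5, and 1 to 3 on leaving out each array. With combi-2 (0) it became 3 without the dimmest probe sets, 3 among protein-coding genes, 2 with the trend, 2 with weights per array, and 0 to 2 on leaving out each array, the 2 without combi-2 replicate 3. For the mean of both (1) it was 5 without the dimmest, 6 among protein-coding genes, 4 with the trend, 4 with weights, 0 with the ordinary model and with the size threshold, and 0 to 4 on leaving out each array. Members called higher with combi-2 than with combi-1 (1) were 2 without the dimmest, 2 among protein-coding genes, 0 with the ordinary model and with 6 arrays, and 0 to 1 on leaving out each array. The dim filter and the choice of protein-coding genes test fewer genes (22320 and 18215) and kept all 37 members. The model was also fitted anew to those genes. Why the counts changed was not tested for any setting.

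Deviations of arrays of the same number had correlations of −0.181 to 0.051, beside −0.107 to 0.14 for arrays of different numbers. This gave no sign of pairing by number. It cannot settle whether arrays of the same number were handled together. With the replicate block, 1 member was called lower with combi-1, 0 for the mean of both and 0 between the combinations.

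Over all genes, those called lower with combi-1 (310) ranged from 73 to 615 and higher (253) from 123 to 531, lower with combi-2 (166) from 29 to 367 and higher (113) from 19 to 366, lower for the mean (306) from 84 to 621 and higher (289) from 113 to 647, and lower between the combinations (88) from 37 to 193 and higher (36) from 5 to 147.

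Values near 0 changed sign on leaving out single arrays: with combi-1, RAE1 (−0.0542 to 0.0181) and RANGAP1 (−0.0369 to 0.0188); with combi-2, NUP43 (−0.0685 to 0.0174), IPO8 (−0.0527 to 0.1162, and −0.0035 with weights per array) and THOC3 (−0.0154 to 0.0623); between the combinations, NUP58 (−0.0534 to 0.0296), NUP42 (−0.0825 to 0.0244), NUP98 (−0.0339 to 0.0127) and XPO4 (−0.0387 to 0.0023).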
